A study of Mus musculus with 7 samples.

Results

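Of 19498 named genes on the arrays, 9 with roles in catecholamine synthesis or in glia were described here in sorted mouse β-cells. They were chosen by name from values in these data, because WT replicate 3 had stood above the other arrays for catecholamine and glial genes. They were Th, Dbh, Pmp22, S100b, Sox10, Erbb3, Gfap, Cdh19 and Foxd3, and each was measured by 1 transcript cluster, the array's probe group for a gene. The study asked which transcripts respond in young β-cells to the loss of Raptor, a subunit that mTOR complex 1 cannot do without. The 4 KO arrays held RNA of Raptor-/-, RIP-Cre, Rosa26GFP mice, and the 3 WT arrays RNA of littermates that were Raptor+/+, RIP-Cre, Rosa26GFP, so both groups carried the rat insulin promoter Cre and the GFP reporter. All were 2-week-old, with a C57BL/6 background in the labels, while the methods give a mixed background for the Cre line. GFP-positive cells were sorted from dissociated, handpicked islets, and every array carried a pool of RNA from several mice of a genotype. The sort was not for β-cells by a surface marker but for any islet cell in which the insulin promoter had driven Cre.

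Catecholamines are made from tyrosine. Tyrosine hydroxylase, encoded by Th, makes L-DOPA in the rate-limiting step, aromatic amino acid decarboxylase (Ddc) turns it into dopamine, and dopamine β-hydroxylase (Dbh) turns dopamine into noradrenaline inside vesicles. Islets are reached by sympathetic nerve fibres, which use noradrenaline, and are wrapped by Schwann cells, the glia of peripheral nerves. Dbh marks noradrenergic and adrenergic cells, while Th and Ddc are also found in some endocrine cells of the rodent pancreas. Sympathetic neurons, adrenal chromaffin cells and Schwann cells all arise from the neural crest.

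Values are log2 signals after quantile normalization. For WT replicate 3 the difference from the mean, and from the highest, of the other 6 arrays is given. These differences chose the genes, so they are a description with no test. The arrays did not stand equally apart. WT replicate 3 was at least 1 log2 unit above every other array for 697 of 22198 transcript clusters, KO replicate 3 for 684 and KO replicate 4 for 720, against 16 to 58 on the other 4 arrays. The median correlation with the other arrays was 0.933 for WT replicate 3, 0.937 for KO replicate 3 and 0.924 for KO replicate 4, against 0.954 to 0.961 for the rest. The mean signal of 3 Y-linked genes was 4.42 on WT replicate 3 and 4.52 on KO replicate 4, against 7.49 to 8.89 on the other 5 arrays, although the methods state that all animals were male. Rptor, the targeted gene, had signals of 5.99, 5.96, 4.40 and 8.54 on the KO arrays, against 5.98, 5.26 and 6.08 on the WT arrays. The groups overlapped, and since no source says whether the probes lie in the deleted exons, this signal did not check the labels.

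Dbh had the largest excess on WT replicate 3 of all 22198 transcript clusters. Its signal there was 14.24. It was 5.32, 6.44, 5.17 and 4.97 on KO replicates 1 to 4, and 4.94 and 5.35 on WT replicates 1 and 2. WT replicate 3 thus stood 8.87 above the mean of the other 6 arrays and 7.80 above the highest, KO replicate 2, which is 223-fold in signal. Among all transcripts of an array, Dbh lay at percentile 98.0 on WT replicate 3, against percentiles 36.8 to 62.7 on the other arrays. On the other 6 arrays the 2 genotypes overlapped.

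Th also stood apart on WT replicate 3, by less than Dbh did. Its signal was 11.69 on WT replicate 3, against 8.75, 7.51, 6.97 and 8.66 on the KO arrays and 8.46 and 8.67 on WT replicates 1 and 2. The excess was 3.52 over the mean of the other 6 arrays and 2.93 over the highest, KO replicate 1, or 7.64-fold. Th lay at percentile 94.2 on WT replicate 3 and between percentiles 68.7 and 82.9 on the others, so its signal was in the upper range of the array in every sample. Th and Dbh were the 2 of the 9 genes at least 1 log2 unit above every other array on WT replicate 3, and 3.14% of all transcript clusters met the same limit. None of the 9 met it on any other array. Over all transcript clusters 3.08% met it on KO replicate 3 and 3.24% on KO replicate 4. A gene highest on WT replicate 3 cannot meet it elsewhere, so nothing is read from this.

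**Figure D1:**
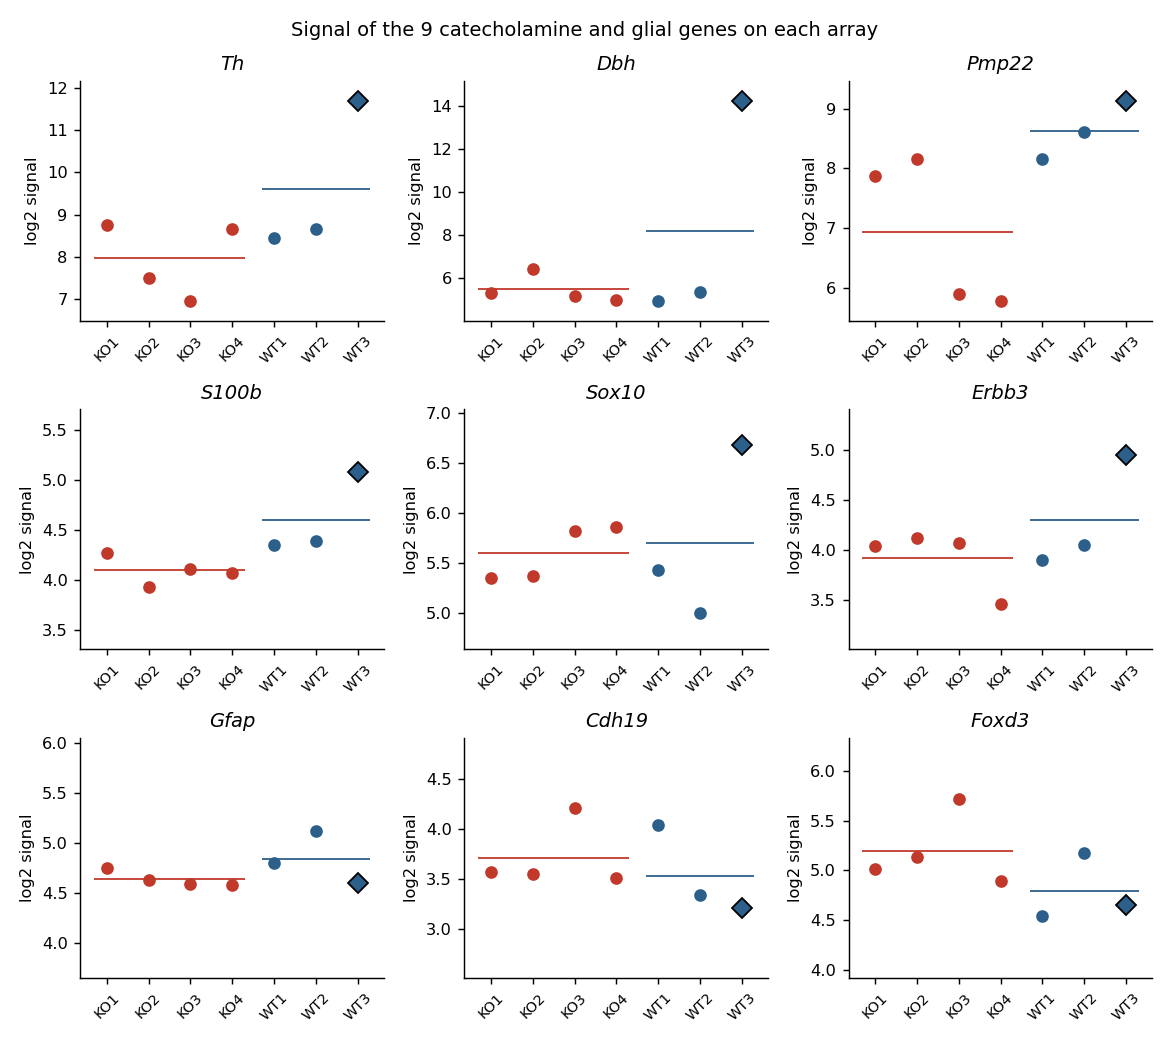
Log2 signal of each of the 9 genes (1 panel per gene) on the 4 KO arrays (red) and the 3 WT arrays (blue), with group means as lines and WT replicate 3 as a black-edged diamond. Each panel has its own axis. WT replicate 3 is the highest array for Th, Dbh, Pmp22, S100b, Sox10 and Erbb3, and lies among or below the others for Gfap, Cdh19 and Foxd3.

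The other genes of catecholamine synthesis did not share this pattern. Of 7 further genes for synthesis and its tetrahydrobiopterin cofactor, 0 stood at least 1 log2 unit above every other array on WT replicate 3, and the median difference from the mean of the other 6 was 0.06. Ddc, the decarboxylase, was 14.30 on WT replicate 3 and 13.35 to 14.88 on the other 6 arrays, with KO replicate 4 the highest. Gch1, which catalyses the first step of cofactor synthesis, was 14.20 on WT replicate 3 and 13.18 to 14.94 on the others. Pnmt, which turns noradrenaline into adrenaline and marks adrenergic chromaffin cells, was 3.96 on WT replicate 3 and 3.50 to 4.51 on the others. WT replicate 3 lay inside the range of the other arrays for these 3 genes. Pcbd1, which helps to regenerate the cofactor, was the 1 gene of the list highest there, at 12.39 against 8.80 to 12.13 elsewhere.

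Genes for the storage, uptake and breakdown of catecholamines did stand apart. Of 7 measured, 4 were at least 1 log2 unit above every other array on WT replicate 3, and the list's median difference was 3.44, against -0.02 over all transcript clusters. Slc18a2, the vesicular monoamine transporter that loads catecholamines into granules, was 10.66 on WT replicate 3, against 6.20, 6.46, 6.42 and 5.97 on the KO arrays and 6.20 and 5.81 on the other WT arrays. That was 18.3-fold above the highest other array. Slc6a2, the noradrenaline transporter of the plasma membrane, was 8.46 on WT replicate 3 and 3.81 to 5.07 on the others, all below the median signal of their arrays. Maoa, a monoamine oxidase, was 9.29 against 5.40 to 6.00. Cyb561, a cytochrome of the vesicle membrane that passes electrons for the Dbh reaction, was 10.84 against 7.0 to 8.20. The other 3 did not meet the limit. The dopamine transporter Slc6a3 was 4.74 on WT replicate 3 and 4.35 to 5.64 elsewhere, and Slc18a1, the monoamine transporter of chromaffin granules, was 6.07 and 4.56 to 6.82. Maob, the other monoamine oxidase, was 12.97 on WT replicate 3 and 10.72 to 12.42 elsewhere, an excess of 0.55 over the highest.

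Of 4 measured transcription factors of the sympathoadrenal lineage, 1 met the limit. Hand1 was 7.49 on WT replicate 3, against 4.61, 4.84, 4.64 and 4.65 on the KO arrays and 4.82 and 4.77 on the other WT arrays, which differed little from one another. Its relative Hand2 was 5.66 on WT replicate 3 and 5.13 to 5.27 elsewhere, above every other array but by less than 1 log2 unit. Gata2 was 5.18 on WT replicate 3 and 3.32 to 5.09 elsewhere. Phox2a, a homeodomain factor that acts on the Dbh and Th genes, was 5.05 on WT replicate 3, below all but KO replicate 2.

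The promoters of the catecholamine genes that stood apart together are shown because Th and Dbh were the 2 genes over the limit and Slc18a2 had the largest excess of the further catecholamine genes, and that of Foxd3 because it holds the same motif without the excess. RefSeq windows (GRCm38.p6, 250 bases before to 50 after a start) were matched for 6 of the 9 genes. Both strands were searched for the cAMP response element TGACGTCA and its shorter core TGACG, which lies inside it, and for the SOX factor letters ACAAAG and ACAATG. The printed stretches are 260 bases with 250 before the start, at chr7:142899986-142900245 on the minus strand for Th and, on the plus strand, at chr2:27165257-27165516 for Dbh, chr19:59260628-59260887 for Slc18a2 and chr4:99656049-99656308 for Foxd3. Capitals mark the motif match, which for Dbh is the core on the reverse strand.
Th: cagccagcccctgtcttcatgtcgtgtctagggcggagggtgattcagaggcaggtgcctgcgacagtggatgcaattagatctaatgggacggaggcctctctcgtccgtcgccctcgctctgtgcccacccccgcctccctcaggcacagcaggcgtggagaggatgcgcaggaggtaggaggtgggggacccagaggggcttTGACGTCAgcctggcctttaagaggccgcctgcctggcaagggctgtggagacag
Dbh: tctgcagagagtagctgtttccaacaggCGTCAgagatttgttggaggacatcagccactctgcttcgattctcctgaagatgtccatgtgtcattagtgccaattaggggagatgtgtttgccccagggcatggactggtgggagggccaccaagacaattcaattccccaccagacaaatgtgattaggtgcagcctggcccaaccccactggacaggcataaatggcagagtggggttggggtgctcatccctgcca
Slc18a2: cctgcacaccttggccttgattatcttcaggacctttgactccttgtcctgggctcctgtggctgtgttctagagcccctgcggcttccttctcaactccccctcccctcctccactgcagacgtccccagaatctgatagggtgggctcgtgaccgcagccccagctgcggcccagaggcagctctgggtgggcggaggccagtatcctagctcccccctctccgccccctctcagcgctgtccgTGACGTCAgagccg
Foxd3: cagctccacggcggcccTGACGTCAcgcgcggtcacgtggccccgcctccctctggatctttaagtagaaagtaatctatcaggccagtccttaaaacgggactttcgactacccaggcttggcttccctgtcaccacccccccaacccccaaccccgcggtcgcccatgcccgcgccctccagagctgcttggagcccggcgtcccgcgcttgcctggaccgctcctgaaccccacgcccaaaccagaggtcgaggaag
The full element TGACGTCA was present in the windows of Th, from 45 bases before the start, of Slc18a2, from 4 bases before it, and of Foxd3, from 233 bases before it. It was in 1.79% of 32851 windows of 300 bases. The window of Dbh held the core without the full element, from 222 bases before the start, and 20.8% of all windows held the core, with or without the rest. Windows of Maoa and Npy, 2 further genes over the limit, were searched too, and neither held the full element. That of Maoa held the core, from 209 bases before the start, and that of Npy did not. ACAAAG and ACAATG were in none of the windows of the 6 genes, and in 18.7% and 12.6% of all windows. Th and Foxd3 thus share the letters of the full element, while Th was 3.52 above and Foxd3 0.43 below the mean of the other arrays on WT replicate 3. A match is a description of the letters only.

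Among the 9, the glial genes did not behave alike on WT replicate 3, and none met the limit that Th and Dbh met. Pmp22, a protein of the compact myelin of peripheral nerves that many other cells also make, was 9.13 on WT replicate 3, against 7.87, 8.16, 5.90 and 5.78 on the KO arrays and 8.16 and 8.61 on WT replicates 1 and 2. WT replicate 3 was the highest but only 0.52 above WT replicate 2. The spread of Pmp22 lay elsewhere, with KO replicates 3 and 4 at 5.90 and 5.78 and the remaining 5 arrays at 7.87 to 9.13. Those are the other arrays that stood apart over all transcripts, and the part of this in the Pmp22 values was not tested.

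Sox10, the transcription factor that defines glia of the neural crest, was 6.68 on WT replicate 3, against 5.36, 5.37, 5.82 and 5.87 on the KO arrays and 5.44 and 5.0 on the other WT arrays. It exceeded the highest other array by 0.81. Erbb3, the receptor through which Schwann cells take up neuregulin signals, was 4.95 on WT replicate 3, against 4.03, 4.12, 4.06 and 3.46 on the KO arrays and 3.90 and 4.05 on the other WT arrays, an excess of 0.83. S100b, a calcium-binding protein used as a Schwann cell marker, was 5.09 on WT replicate 3, against 4.28, 3.93, 4.12 and 4.08 on the KO arrays and 4.35 and 4.39 on the other WT arrays, an excess of 0.70. All 3 were highest on WT replicate 3 by less than 1 log2 unit. Among all transcripts Sox10 lay at percentile 65.7 on WT replicate 3 and 38.2 to 54.8 elsewhere, Erbb3 at 37.0 and 4.23 to 17.1, and S100b at 40.1 and 12.7 to 23.6.

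The remaining 3 genes were not raised on WT replicate 3. Gfap, an intermediate filament of astrocytes and non-myelinating Schwann cells, was 4.60 there, against 4.75, 4.64, 4.59 and 4.58 on the KO arrays and 4.80 and 5.12 on the other WT arrays. Foxd3, a factor of early neural crest and glial precursors, was 4.65, against 5.02, 5.14, 5.71 and 4.89 on the KO arrays and 4.54 and 5.18 on the other WT arrays. Cdh19, a cadherin of Schwann cell precursors, was 3.21, the lowest of the 7 arrays, against 3.57, 3.55, 4.22 and 3.51 on the KO arrays and 4.05 and 3.34 on the other WT arrays. Their differences from the mean of the other 6 arrays were -0.15, -0.43 and -0.50. In all, WT replicate 3 was the highest of the 7 arrays for 6 of the 9 genes and below the mean of the others for 3. That array chose the genes and the share of all transcript clusters highest on it was not counted, so this count has no reference. The median difference from the mean of the other 6 arrays was 1.01 over the 9 genes and -0.02 over all 22198 transcript clusters. At the limit of 1 log2 unit over every other array, Th with an excess of 2.93 was nearest inside, and Erbb3 at 0.83 and Sox10 at 0.81 were nearest outside.

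A wider list of Schwann and satellite glial genes was mixed in the same way. Of 30 measured, 5 were at least 1 log2 unit above every other array on WT replicate 3, with a median difference of 0.11. Fabp7, a brain-type fatty acid binding protein of glial precursors and satellite glia, was 12.18 on WT replicate 3, against 4.32, 3.37, 4.43 and 7.63 on the KO arrays and 4.84 and 4.56 on the other WT arrays. KO replicate 4 was the second highest array for Fabp7. Mbp, a myelin protein, was 7.10 on WT replicate 3 and 3.76 to 4.81 elsewhere. Gap43, a growth-cone protein found in neurons as well as in Schwann cells, was 11.72 on WT replicate 3 and 7.29 to 9.51 elsewhere. Plekhb1 was 8.15 and 4.79 to 6.38. Several further markers did not reach the limit. The myelin-associated glycoprotein gene Mag was 4.44 on WT replicate 3 and 3.86 to 4.34 elsewhere, the neurotrophin receptor gene Ngfr 4.82 and 4.63 to 5.13, and Sox2 4.45 and 3.82 to 4.28. Mag, Ngfr and Sox2 were picked from the list after their values were seen. Lgi4, a secreted Schwann cell protein also picked after its values were seen, was high on another array, at 11.61 on KO replicate 4 and 4.39 to 5.48 on the other 6.

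Of 13 further neural crest and ErbB genes, 1 met the limit. Nrg1, which encodes the neuregulin ligand of Erbb3, was 7.62 on WT replicate 3, against 5.62, 5.54, 6.09 and 6.23 on the KO arrays and 5.63 and 6.56 on the other WT arrays. The co-receptor gene Erbb2 was 3.39 on WT replicate 3 and 3.04 to 3.80 elsewhere, inside the range of the others. Erbb4 was 5.36 on WT replicate 3 and 3.25 to 4.67 elsewhere, an excess of 0.69.

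Neuronal genes gave the largest number. Of 22 measured, 8 were at least 1 log2 unit above every other array on WT replicate 3, with a median difference of 0.48. Stmn2, a microtubule regulator of growing axons, was 12.21 on WT replicate 3, against 5.29, 6.57, 5.12 and 7.08 on the KO arrays and 6.04 and 5.85 on the other WT arrays. Npy, a peptide released with noradrenaline from sympathetic nerves and also made in young islet cells, was 14.31 on WT replicate 3 and 8.80 to 10.63 elsewhere. Tubb3, a neuronal tubulin, was 11.46 and 6.82 to 7.85. Nefl, a neurofilament subunit, was 8.31 and 5.05 to 5.68, and Prph, the peripheral neuron filament protein, 6.29 and 3.65 to 4.55. These 5 genes were highest on WT replicate 3 by at least 1.74. Chat, the enzyme of acetylcholine synthesis that marks cholinergic neurons, was low on every array, at 3.10 on WT replicate 3 and 2.77 to 3.17 elsewhere. Elavl4, an RNA-binding protein of neurons, was 8.23 on WT replicate 3 and 8.11 to 10.08 elsewhere, with only KO replicate 4 lower.

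Over all 6 lists, 19 of 83 genes met the limit on WT replicate 3, beside 3.14% of all transcript clusters. The lists were drawn up with earlier results of these data known, so this count is a description. Fewer cells of a type and less RNA per cell cannot be told apart in RNA from a sorted pool. The synthesis list leaves out Th and Dbh, both over the limit, so its count of 0 covers only the remaining synthesis and cofactor genes. The 0 genes of the synthesis list against 4 of 7 in storage, uptake and breakdown are counts without a test of their difference. So are the 5 of 30 in glia against 8 of 22 in neurons.

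**Figure D2:**
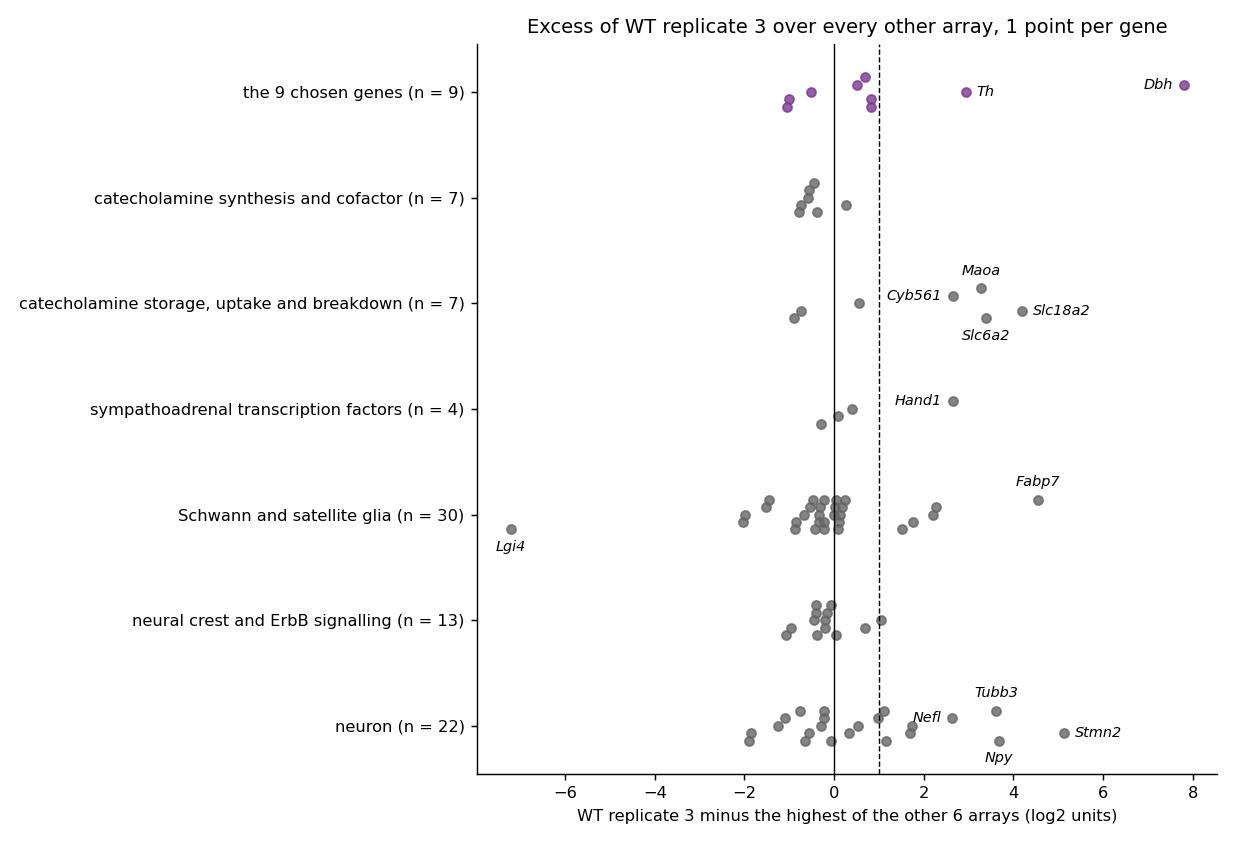
WT replicate 3 minus the highest of the other 6 arrays in log2 units (x axis), with 1 point per gene, for the 9 genes (purple) and 6 lists of related genes (grey). The dashed line is the limit of 1 log2 unit. Dbh lies farthest to the right at 7.80, and Stmn2 at 5.13, Fabp7 at 4.56 and Slc18a2 at 4.19 follow. Lgi4, high on KO replicate 4, lies farthest to the left.

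Genes of other cell types also differed on the same array. The mean signal of 11 acinar genes, digestive enzymes of the exocrine pancreas and their regulators, was 7.50 on WT replicate 3. It was 9.36, 12.42, 8.82 and 15.21 on the KO arrays and 11.11 and 14.15 on the other WT arrays. Of the 11, 6 were at least 1 log2 unit below every other array on WT replicate 3. Over all transcript clusters 2.12% (470 of 22198) were that far below on WT replicate 3. For KO replicates 3 and 4 the share was 2.57% and 2.78%. The 11 β-cell genes averaged 15.01 on WT replicate 3, inside the range of 13.75 to 15.09 on the others. Ins2, the main insulin gene, was at the top of the scale on every array. Of the β-cell genes, Pdx1, a transcription factor, met the limit, at 10.19 on WT replicate 3 and 6.88 to 8.35 elsewhere. Gcg, the glucagon gene of α-cells, was at the same ceiling as Ins2 on every array, so neither gene can show a change. The 5 α-cell genes averaged 12.05 on WT replicate 3 and 11.55 to 12.09 elsewhere, and 0 met the limit. The list of δ-, PP- and ε-cell genes averaged 10.23 on WT replicate 3, below the 11.31 to 12.98 of the other 6 arrays, and 3 of its 6 genes were at least 1 log2 unit below every other array. These were the hormone genes Sst, at 17.83 against 19.04 to 19.91, and Ppy, at 15.85 against 17.82 to 19.57, and Rbp4, at 10.75 against 11.93 to 14.75. Of 6 ductal genes, 1 was that far below, Epcam, at 8.46 against 10.03 to 11.32, and the list averaged 8.11 on WT replicate 3 and 8.19 to 9.38 elsewhere. Of 11 mesenchymal genes, 2 met the limit, Dcn and Col1a2, and the list averaged 6.15 on WT replicate 3, against 6.73 on KO replicate 4 and 4.83 to 5.30 on the other 5 arrays. None of 9 endothelial or 9 immune genes met it. The endothelial list averaged 4.71 on WT replicate 3 and 4.45 to 5.28 elsewhere, and the immune list 5.20 and 5.0 to 5.42. The part of these cell types, of the Y-linked signal and of the array itself in the values of the 9 genes was not tested.

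**Figure D3:**
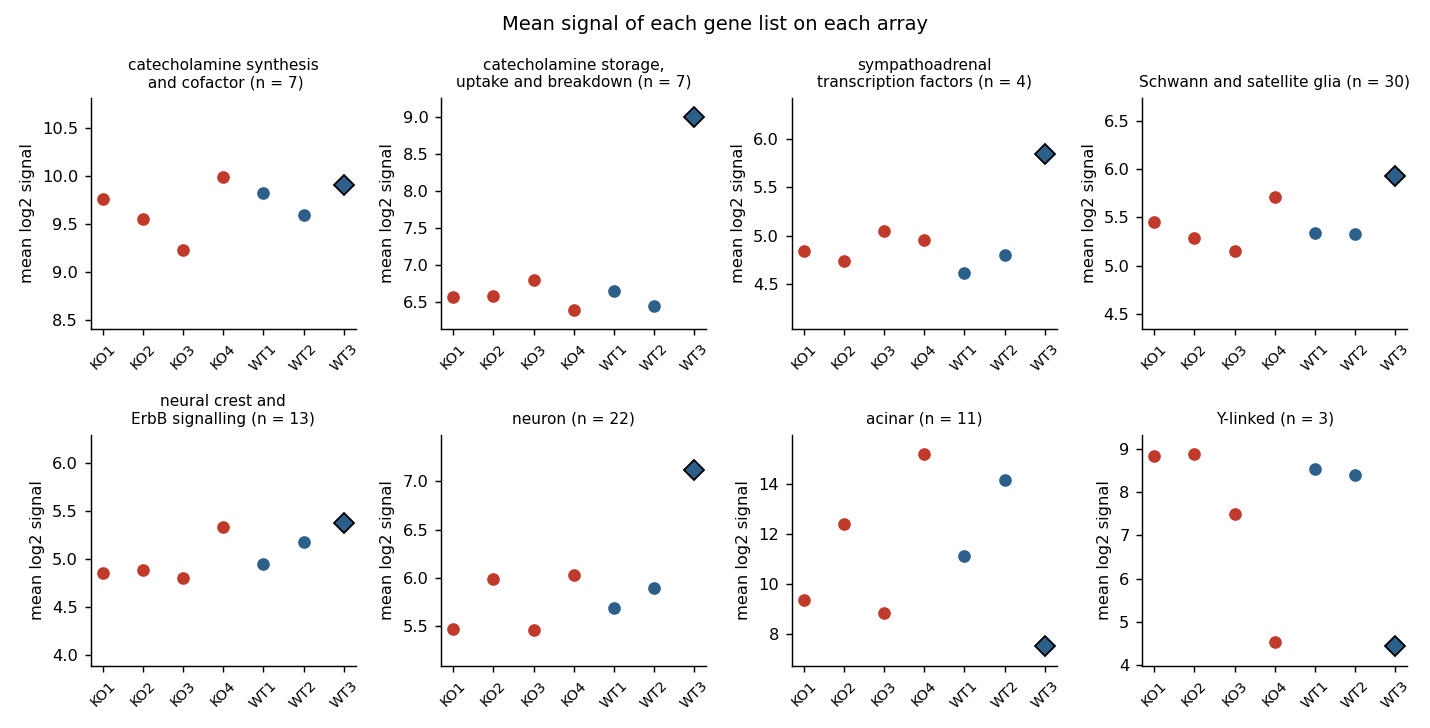
Mean log2 signal of each gene list (1 panel per list, each with its own axis) on the 4 KO arrays (red) and the 3 WT arrays (blue), with WT replicate 3 as a black-edged diamond. For catecholamine storage, uptake and breakdown WT replicate 3 is at 9.0 and the other 6 arrays at 6.40 to 6.80, and for neurons at 7.12 and 5.45 to 6.03. For acinar and Y-linked genes it is the lowest array, as it also is for the δ-, PP- and ε-cell and ductal lists, which are not drawn.

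Once WT replicate 3, the array that chose them, was left out, the 9 genes gave no genotype difference beyond the spread of the arrays. This holds for the main fit, which did not use the replicate numbers. With limma, 4 KO against 2 WT arrays, 0 of the 9 had an unadjusted p below 0.05, while 1.35% of all transcript clusters did, and every adjusted p was 1. With the replicate number as a block the same contrast gave 1008 calls in place of 300 over all transcript clusters at the unadjusted threshold and 21 in place of 0 at an adjusted p of 0.05. Of the 9 genes, Dbh alone then passed the unadjusted threshold, higher in KO by 0.73 (limma with the replicate block, unadjusted p = 0.036, adjusted p = 0.999). This fit compares 2 pairs of arrays only.

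Pmp22 had the largest difference of the 9. It averaged 6.93 ± 1.26 in KO (SD, n = 4), and WT replicates 1 and 2 were 8.16 and 8.61. KO was lower by 1.45 on the log2 scale (limma, SE 0.77, 95% interval -3.30 to 0.39, unadjusted p = 0.104). This value rested on KO replicates 3 and 4. Among WT and KO replicates 1 and 2, the 4 arrays most like one another, KO minus WT was -0.37.

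Th averaged 7.97 ± 0.88 in KO (SD, n = 4), against 8.46 and 8.67 on WT replicates 1 and 2. The difference was -0.59 (limma, interval -1.92 to 0.74, unadjusted p = 0.325), and KO replicate 1 was above both WT arrays and KO replicate 4 between them. Dbh averaged 5.48 ± 0.66 in KO, against 4.94 and 5.35, a difference of 0.33 (limma, interval -0.74 to 1.40, unadjusted p = 0.486). Its highest value without WT replicate 3, 6.44, was in KO replicate 2. Neither direction was thus resolved for the 2 enzymes.

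Among the glial genes, Gfap and S100b were lower on all 4 KO arrays than on both remaining WT arrays. Gfap averaged 4.64 ± 0.079 in KO (SD, n = 4), against 4.80 and 5.12, a difference of -0.32 (limma, interval -0.86 to 0.22, unadjusted p = 0.200). S100b averaged 4.10 ± 0.14 in KO, against 4.35 and 4.39, a difference of -0.27 (limma, interval -0.80 to 0.27, unadjusted p = 0.272). With 4 against 2 arrays, 4.62% of all transcript clusters had every KO array below both WT arrays, and 2 of the 9 genes did. Sox10 (0.39), Foxd3 (0.33), Erbb3 (-0.05) and Cdh19 (0.02) overlapped between the groups, with unadjusted p of 0.217, 0.356, 0.852 and 0.958 in limma. The intervals reached from -0.29 to 1.06 for Sox10 and from -0.72 to 0.61 for Erbb3.

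With all 3 WT arrays most of the 9 differences were negative, and since a WT array chose the genes this direction is no result. KO minus WT was then -2.70 for Dbh, -1.63 for Th, -1.70 for Pmp22, -0.51 for S100b, -0.38 for Erbb3, -0.20 for Gfap, -0.10 for Sox10, 0.18 for Cdh19 and 0.40 for Foxd3. Dbh and Sox10 had the opposite sign without WT replicate 3. The number below WT in the mean was 7 of 9 with all arrays and 5 of 9 without WT replicate 3, and the median was -0.38 and -0.05, beside 0.00 and 0.01 over all transcript clusters. The SD of Dbh was 0.66 over the 4 KO arrays and 5.25 over the 3 WT arrays, and that of Th was 0.88 over the KO arrays and 1.81 over the WT arrays. S100b was the 1 gene whose groups did not overlap, and 1.95% of all transcript clusters were lower on every KO array in this way. Over the whole array limma called 0% of transcript clusters at an adjusted p of 0.05 and 2.18% (484, with 225 higher and 259 lower in KO) at an unadjusted p of 0.05, Pmp22 being the 1 of the 9 genes in the second count. With the replicate block, with array weights, with the methods' t-test, or without KO replicate 3, KO replicate 4, WT replicate 2 or WT replicate 3, Pmp22 was not called, and 0 of the 9 genes were. Since WT replicate 3 enters this contrast, nothing was read from these counts for the 9 genes.

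**Figure D4:**
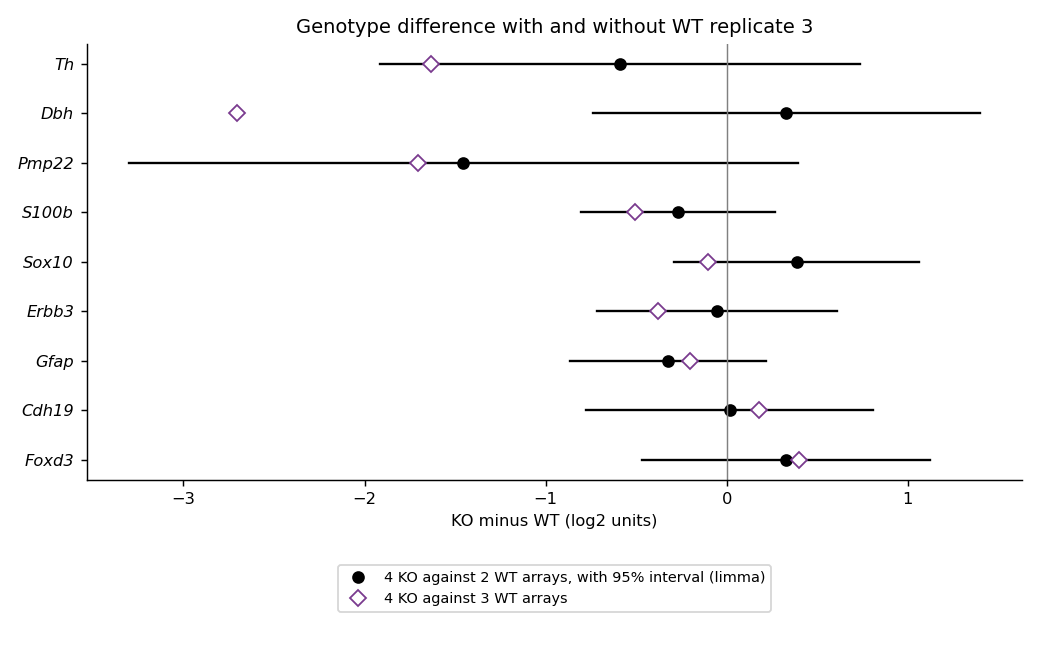
KO minus WT in log2 units (x axis) for each of the 9 genes, from 4 KO against 2 WT arrays with the 95% interval of limma (black) and from 4 KO against all 3 WT arrays (open diamonds). All 9 intervals without WT replicate 3 include 0. With it, Dbh is at -2.70, outside its interval of -0.74 to 1.40.

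The related genes were compared in the same way. Of the 83 genes in the 6 lists, 0 had an unadjusted p below 0.05 in limma with all arrays. Without WT replicate 3 there was 1, Gap43, higher in KO by 1.09 (limma, unadjusted p = 0.048, adjusted p = 1), at 9.51, 8.60, 7.93 and 8.45 on the KO arrays, against 7.29 and 7.77 on WT replicates 1 and 2. With WT replicate 3, at 11.72, the Gap43 difference was -0.30. Slc18a2 differed by 0.25, Slc6a2 by 0.27, Maoa by -0.08, Hand1 by -0.11 and Stmn2 by 0.07 between KO and the remaining WT arrays. None of these 5 passed the unadjusted threshold. On the values as deposited, or after median centring, 0 of the 83 genes passed it, Gap43 included. With the replicate block 4 passed it, Gap43 higher and Chrnb4, Ednrb and Fabp7 lower in KO, and with the methods' t-test 3 did, Pou3f1, Slc18a3 and Twist1, all lower. None of the 83 passed an adjusted p of 0.05 in either. Gap43 was also not called with trend and robust variances, or once KO replicate 1, 2 or 4 or WT replicate 1 or 2 was left out as well.

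How several of the 9 genes varied with Dbh or Th depended on WT replicate 3, while other pairs changed little. Pearson's r with Dbh was 0.85 for Th, 0.89 for Erbb3, 0.85 for S100b and 0.80 for Sox10 over 7 arrays. Over the 6 arrays without WT replicate 3 it was -0.40 for Th, 0.54 for Erbb3, -0.60 for S100b and -0.34 for Sox10. For Pmp22, Gfap, Cdh19 and Foxd3 it was 0.54, -0.30, -0.55 and -0.38 over 7 arrays. Over 6 arrays these were 0.40, -0.10, -0.34 and 0.23. With Th, r was 0.92 for S100b, 0.65 for Sox10, -0.03 for Gfap and -0.67 for Foxd3 over 7 arrays, and 0.60, -0.39, 0.51 and -0.72 in the same order over 6. The arrays share one normalization.

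Among 1982 named genes with an SD of at least 1 log2 unit over the 7 arrays, the 10 whose pattern was most like the mean of the 9 centred genes were Ola1 (r = 0.996), Tmem47 (0.990), Ppox, Sqor, Tprkb, Frmd4b, Ndrg2, Nefl, Ndrg4 and Hand1. All were highest on WT replicate 3. Ola1 was 9.38 there and 6.15 to 6.87 elsewhere, and Tmem47 13.11 and 5.57 to 7.40. Dbh has the largest range of the 9 and dominated that mean. With each gene divided by its SD first, the 10 genes were led by Timm9, Grhpr and Casp2, and 0 were shared with the first 10. By size alone, the largest excess over every other array after Dbh was that of Dpysl3, a protein of growing axons, at 10.24 on WT replicate 3 and 3.31 to 4.43 elsewhere. Tmem47, Stmn2 and Ndrg4 followed, with excesses of 5.72, 5.13 and 4.69.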

How the data were processed

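Sorted β-cells were measured on Affymetrix Clariom S arrays (4 KO, 3 WT). For every transcript cluster on an array the authors deposited a log2 signal. Of software, the submitters' processing notes list MAS5 and Affymetrix Expression Console, and the methods list GeneSpring. The background correction and the summary over probes were not given in the sources used here. Compression of dim signals is therefore unknown, and detection calls were not used. Deposited medians ranged over 0.14, above the limit of 0.1 set for normalizing, and the values were quantile normalized. The platform annotation named 19565 of the 22198 transcript clusters, with 2633 unnamed. The transcript cluster with the highest mean was kept per symbol.

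The 2 genotypes were compared by limma's moderated test (version 3.58.1, R 4.3.3), two-sided and without covariates, adjusted by Benjamini-Hochberg over all 22198 transcript clusters, once with all 7 arrays and once without WT replicate 3. The 9 genes and the gene lists were chosen with earlier results of these data known. Named genes were the 9, Rptor, defining markers, up to 4 genes per list with the largest excess on WT replicate 3 or the smallest p, and the 10 most like the 9 genes or largest in excess, without predicted genes and olfactory or vomeronasal receptors. Slc18a1, Mag, Ngfr, Sox2, Lgi4, Erbb2 and Chat, and genes called in an alternative only, were named after their values were seen. Precision is limited by the number of arrays. The fit was also tested on simulated data.

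KO and WT titles share the numbers 1 to 3. With KO replicate 4 left out, deviations from the group means correlated at 0.160, 0.243 and 0.165 between equal numbers. All 3 values were above the limit of 0.1. Between unequal numbers the deviations correlated at -0.181 to 0.023. Deviations from a group's own mean cancel out, so high values at equal numbers push those at unequal numbers down. The numbers were taken to pair arrays, although no source states what they share. The main fits did not use the pairs.

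Tried as alternatives were median centring, cyclic loess and no normalization, a filter at the median signal, trend and robust variances, array weights, the methods' t-test, the replicate number as a block, leaving out each array, other limits, and WT replicate 3 against the other 2 WT arrays. A fit on the 4 arrays most like one another and likeness to scaled genes were added after seeing the data. The mean over transcript clusters of a symbol was not needed, since each gene had 1.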

Additional observations from a re-analysis of the deposited data

Results flagged for a closer look

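In 15 groups of 4 KO values, of the 9 genes and the 6 list scores, the gap of the highest or lowest array to its neighbour was set against the range and Dixon's critical value for 4 samples, and 3 groups exceeded it where chance alone gives 0.75, about 1 in 20. For Erbb3 the ratio was 0.8707, with KO replicate 4 at 3.46 and the other 3 KO arrays at 4.03 to 4.12. For Cdh19 it was 0.9185, with KO replicate 3 at 4.22 and the others at 3.51 to 3.57. The mean of the neural crest and ErbB list had 0.844, with KO replicate 4 at 5.34 and the others at 4.81 to 4.89. All 3 flags fell on KO replicates 3 and 4, the KO arrays that stood apart over all transcripts, and the part of those arrays in them was not tested.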

How the results depend on the processing

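None of the 9 genes passed an adjusted p of 0.05 in any alternative, the lowest being 0.933. Without WT replicate 3, 1 of the 9 passed the unadjusted threshold in 3 alternatives, namely Dbh with the replicate block, Gfap with the methods' t-test and Pmp22 without KO replicate 2. Of 130 alternative values of KO minus WT with all arrays, 119 stayed within the spread of the arrays and 11 moved, among them Dbh, whose difference was -0.56 with array weights. Without WT replicate 3, 125 of 130 stayed. The sign was not fixed for Erbb3, from -0.13 to 0.10, and Cdh19, from -0.33 to 0.37. The other members kept their sign in that contrast. For WT replicate 3 against the other 6 arrays 88 of 90 stayed. Under the other normalizations the number over the limit on WT replicate 3 was 2 of the 9 genes and 18 or 19 of the 83 related genes. The median over the 9 genes was 0.75 when WT replicate 3 was set against the other 2 WT arrays alone. At a limit of 0.58 log2 units 5 of the 9 genes passed. By excess over the highest other array S100b, the lowest of the 5, ranked 1089 of 22198 transcript clusters. Pmp22, below the limit, ranked 1500. At 2 log2 units 12 of the 83 related genes passed, and the share of all transcript clusters there was not counted. At an unadjusted p of 0.05, the filter on dim signals left 177 calls with all arrays and 108 without WT replicate 3. It tested 11099 of the 22198 transcript clusters. Over all transcript clusters, leaving out 1 array in turn gave 300 (without WT replicate 3) to 697 (without KO replicate 1). Without WT replicate 3 the count of 300 became 579 with array weights, 495 with the methods' t-test, 492 on the 4 arrays most like one another, 182 to 569 with 1 more array left out (182 without WT replicate 2, 523 without KO replicate 2, 569 without KO replicate 1), and 1008 with the replicate block, where 21 passed an adjusted p of 0.05. With all arrays the paired fit gave 579 and 0 and no longer called Pmp22, and without WT replicate 3 it changed the call of Dbh alone among the 9 genes. The causes of these shifts were not tested. The scale of the deposited values at low signal is unknown, which limits what the dim genes Erbb3, S100b, Gfap and Cdh19 can show.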
